A study of Mus musculus with 3 samples.

Results

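Pachytene spermatocytes of adult mouse testis were taken from single-cell 3′ RNA libraries by the transcripts that mark the stage. A barcode was kept with at least 10000 unique molecular identifiers (UMIs, each standing for 1 counted RNA molecule), at most 10% mitochondrial UMIs and less than 2% of UMIs from Prm1, Prm2, Tnp1 and Tnp2. A kept barcode counted as a pachytene spermatocyte when the UMIs of Piwil1, Mybl1 and Tdrd1 summed to at least 5 and exceeded 3 other sums: Meiob, Prss50, Rad51ap2 and Dmc1, then Aurka, Cdc25c and Ccna1, then Acrv1, Spaca1, Tex36 and 1700001P01Rik. Of 33038 deposited barcodes, 1383 were pachytene spermatocytes by this rule: 437 from wildtype replicate 1, 505 from wildtype replicate 2 and 441 from knockout mice. The same thresholds with the other sums in first place gave 3 neighbouring groups. Early neighbours, marked by the recombination genes Meiob and Dmc1 and their companions, numbered 89, 79 and 209. Late neighbours, marked by the division genes Aurka, Cdc25c and Ccna1, numbered 184, 164 and 185, and round spermatid neighbours 477, 788 and 501.

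The series asked how the loss of Tex10 in a conditional knockout affects spermatogenesis. Each of the 2 wildtype libraries (wildtype replicate 1 and wildtype replicate 2) held the testis cells of 1 adult mouse, and the 1 knockout library held those of 2 conditional Tex10 knockout mice together. All mice carry the strain label C57BL/6N. The Cre driver, the deleted exons and the ages beyond adult are not given in the sources used here, and the knockout library has no replicate. Where 3 values stand in a row, they belong to wildtype replicate 1, then wildtype replicate 2, then the knockout.

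Pachytene is the long stage of meiotic prophase in which paired homologous chromosomes are held together along their length by the synaptonemal complex, while recombination intermediates mature into crossovers. In males the largely unpaired X and Y chromosomes are silenced in this stage and form the sex body. The stage is also known for the production of pachytene piRNAs, which the PIWI protein encoded by Piwil1 binds, under the transcription factor encoded by Mybl1 (A-MYB), and for an early start of transcription of genes whose proteins serve the sperm.

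The rule rested on measured values, so the levels of its genes describe the cells and are no finding. On the scale of counts per 1000000 UMIs (CPM) after trimmed-mean scaling of each library and stage (normalised CPM below), Piwil1 stood at 946, 929 and 757 in pachytene spermatocytes, against 97.7, 112 and 62.7 in early and 156, 155 and 156 in late neighbours. Tdrd1, a Tudor protein gene of the piRNA pathway, stood at 309.9, 306 and 292, against 59.5, 64.4 and 53.5 and 47.2, 46.6 and 54.5. Mybl1 was the flattest of these genes, at 128, 125 and 124 against 88.7, 83.00 and 95.6 and 91.4, 87.8 and 94.3. In every library all 3 genes were thus highest in the pachytene group, as the rule requires of their sum. The median sum of the 3 genes was 66, 46 and 70 UMIs per barcode, far from the limit of 5. Just inside the limit, 8, 4 and 5 barcodes had a sum of exactly 5, and just outside it 11, 9 and 12 had a sum of 4 that exceeded the other sums. Ties with another sum kept out 3 barcodes in each library, and 2, 15 and 3 members had under 11000 UMIs.

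Pou5f2 (ENSMUSG00000093668), a POU transcription factor gene that the rule did not use, was the remaining marker of the stage. Median depths were 51152, 35125 and 64303 UMIs in pachytene spermatocytes and 28669, 24074 and 38247 UMIs in round spermatid neighbours. With every barcode thinned to 10000 UMIs, Pou5f2 had a UMI in 40.7%, 36.2% and 38.1% of pachytene spermatocytes. In round spermatid neighbours thinned alike, its shares were 3.56%, 5.08% and 4.39%. Its normalised CPM was 150.2, 133 and 132, against 5.45, 5.41 and 8.82 in early neighbours (log2 fold change 4.27 ± 0.15 SE, adjusted p = 6.3e-15). Late neighbours had still more, 247, 214 and 285, a difference that did not reach 2-fold (log2 fold change -0.84 ± 0.08 SE, adjusted p = 7.5e-09) except with the size factors of DESeq2, where it was -1.06. Pou5f2 thus passed against the early group and not against the late one. Transcripts of sperm chromatin proteins were found in nearly every barcode: after the same thinning Prm1 had a UMI in 100%, 99.4% and 99.1% of pachytene spermatocytes. Its level was 888, 1115 and 757 normalised CPM. A low share of barcodes with a UMI is therefore not read here as expression.

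A small set of members went against the label. In 11, 14 and 26 of them (2.52%, 2.77% and 5.90%) the summed UMIs of spermatogonia, Sertoli, Leydig, myoid and macrophage markers, without X-linked Rhox5, reached or exceeded the pachytene sum, a criterion chosen after the data had been seen. Their median pachytene sum was 5, 7 and 7 UMIs, against 67, 46 and 72 in the other members. Sertoli markers stood in them at 1124, 881 and 2490 CPM without that scaling, against 9.78, 14.6 and 16.2 in the others. The criterion used these markers and the pachytene sum, so both differences follow from it and are no finding. Pou5f2, which the criterion did not use, stood at 3.37, 17.8 and 43.8 CPM against 137.5, 124.0 and 124.9. They made up 1.26%, 2.21% and 3.38% of the members' UMIs, with the largest share in the knockout library. Among the neighbours the criterion held for 23, 20 and 49 early, 5, 6 and 12 late and 12, 9 and 17 round spermatid barcodes, so the early group carried the largest share of such barcodes and was also the shallowest, with median depths of 13139, 13318 and 14334 UMIs. Values with such barcodes left out of every group are given beside several of the results. Against early neighbours, 4 of 6 spermatogonia markers and 5 of 6 Sertoli markers were lower in pachytene spermatocytes, and 3 of 4 and 2 of 3 without such barcodes, where 23.3% of all genes were lower. The criterion used these markers except Rhox5, so the counts without such barcodes are no separate support. Of the automatic doublet calls, Scrublet made 4, 7 and 1 per library, too few to use, and leaving out the top 8% of its scores removed 13, 16 and 11 members.

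The libraries held 93418341, 96001773 and 147783171 UMIs in 9967, 10153 and 12918 barcodes. No member barcode was shared between libraries, although 27 to 30 barcodes were shared between each pair over all deposited barcodes. To check whether one library had been deposited under both names, the summed members of the wildtype libraries were compared over 16379 genes, and chi-square was 4.23 times its degrees of freedom. Endothelial and erythroid markers summed to at most 1.83 and 0.207 CPM in members of any library.

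Pachytene spermatocytes were the richest cells of the 4 groups in UMIs. In the number of genes at equal depth they lay between early and late neighbours. Thinned to 10000 UMIs per barcode, the median number of genes was 3451, 3473 and 3464 in pachytene spermatocytes, 3693, 3668 and 3801 in early neighbours and 3219, 3236 and 3258 in late neighbours. Without thinning it was 6918, 6174 and 7348 in pachytene spermatocytes and 4362, 4399 and 4635 in early neighbours. The same 3 groups formed a series in the makeup of their RNA. Long noncoding RNAs took up 4.22%, 4.11% and 4.29% of UMIs in pachytene spermatocytes, between 2.30%, 2.20% and 2.87% in early and 5.6%, 5.54% and 5.59% in late neighbours. Ribosomal protein transcripts went the other way, from 10.5%, 10.6% and 9.69% through 8.29%, 8.44% and 7.69% to 6.26%, 6.29% and 5.73%.

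The most abundant transcripts of the pachytene spermatocytes were Ldhc, Meig1, Hsp90aa1, Fabp9, mt-Atp6, Ubb, mt-Co2 and Lyar. Ldhc, the testis form of lactate dehydrogenase, stood at 9455, 8759.8 and 8448 normalised CPM, against 499, 647 and 672 in early neighbours. Meig1, needed for spermiogenesis, stood at 8695, 8166 and 7187 against 1183, 1344 and 1104. Lyar, a nucleolar protein gene abundant in testis, stood at 4997, 4671 and 4892 against 488, 599 and 613. These 3 genes together with Fabp9 rose by 2.72 to 3.86 on the log2 scale from early neighbours, and none differed from late neighbours by 2-fold. Hsp90aa1 did not pass the threshold in either comparison, at 7155, 7223 and 7128. Of the 3′ ends of Fabp9, Hsp90aa1 and Ubb, 46.8%, 46.1% and 81.2% were shared with other genes' transcripts, and those of mt-Co2 and mt-Atp6 nearly in full, so the split of their reads is uncertain.

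**Figure D1:**
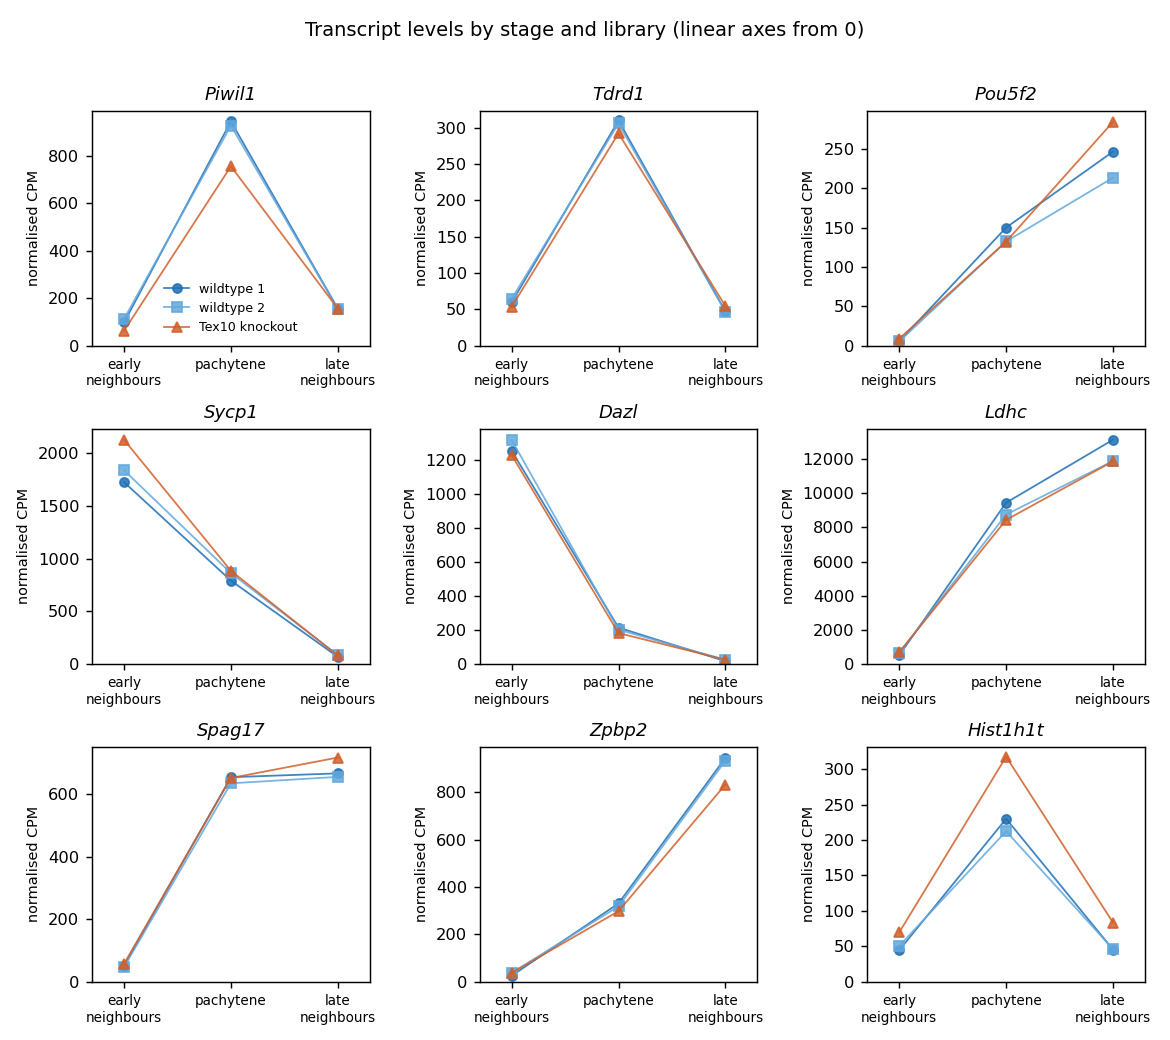
Normalised CPM (linear axes from 0) of 9 genes in early neighbours, pachytene spermatocytes and late neighbours; each line and marker is 1 library. Piwil1 and Tdrd1, which chose the cells, peak in the middle together with Hist1h1t, while Sycp1 and Dazl fall and Ldhc, Zpbp2 and Pou5f2 rise from left to right in every library.

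Pachytene spermatocytes were compared with their neighbours within each library, with edgeR's quasi-likelihood test on summed UMIs and the library as a block. A gene was called at an adjusted p under 0.05 and at least a 2-fold difference. Of 14564 genes tested, 51.3% differed from early neighbours, 28% higher and 23.3% lower, and 37.7% from late neighbours, 20.9% higher and 16.8% lower. The groups were chosen by marker genes measured in the same cells, so these calls say which other genes differed in the same way in the 3 libraries, 1 of them of another genotype. Scaling by total UMIs alone moved the median of all genes from -0.01 to -0.58 against early and from 0.05 to 0.26 against late neighbours, and the calls to 2864 higher and 5581 lower, and 3712 higher and 1922 lower. With DESeq2 the split against late neighbours became 2311 higher and 3020 lower, from 3043 and 2444. Directions below are relative to trimmed-mean scaling. The lists of genes were chosen with earlier results of these data known, and each count of a list is to be read against these shares of all genes.

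Most genes of the chromosome axis were lower than in early and higher than in late neighbours. Of 11 measured synaptonemal complex and HORMA-domain genes, 7 were lower than in early neighbours and 1 higher, and 10 were higher than in late neighbours and 0 lower (medians -1.17 and 1.54). Sycp1, the transverse filament of the complex, went from 1727, 1839.9 and 2129 in early neighbours through 790.1, 862 and 884 to 65.2, 81.99 and 77.7 normalised CPM. The stages did not overlap, with log2 fold changes of -1.17 ± 0.06 and 3.50 ± 0.07 (SE; adjusted p = 6.6e-13 and 1.3e-17), the first at -0.99 and short of 2-fold with no filter on low counts. Six6os1 (here 4930447C04Rik), a central element gene, followed the same course at 298, 342 and 391, 90.9, 97.2 and 90.5 and 6.03, 10.5 and 6.01. Tex12, also of the central element, stayed at 259, 249 and 192 against 317, 339 and 266 in early neighbours, which did not pass, and was at 16.9, 17.8 and 13.7 in late neighbours. Syce1 was the exception: it rose from 155, 186 and 193 to 673, 657 and 688 and stood at 1027, 980.3 and 1043 in late neighbours, which did not pass.

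Of 9 measured cohesin genes, 6 were lower than in early neighbours and 0 higher, and against late neighbours 1 was higher and 1 lower. Smc3, a core ring subunit, fell from 284, 264 and 278 to 26.2, 26.2 and 27.7 (log2 fold change -3.37 ± 0.07 SE, adjusted p = 1.4e-17). Rad21l, the kleisin subunit of early prophase, went from 8.92, 6.62 and 13.6 to 0.234, 0.323 and 0.149. X-linked Smc1a fell from 20.8, 22.9 and 26.9 to 1.12, 1.08 and 2.80. The meiotic subunits Smc1b and Stag3 differed from early neighbours by 0.07 and 0.09 and did not pass. Without barcodes rich in other cell types' markers the median of the list was -1.63 in place of -2.45, with 6 genes lower.

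Of 23 recombination genes measured, 8 were lower and 3 higher than in early neighbours, and 9 higher and 1 lower than in late neighbours. Scaled by total UMIs, the counts were 13 and 2, and 14 and 0. Prdm9, the histone methyltransferase that places recombination hotspots, stood at 1.12, 0.968 and 1.08 normalised CPM against 24.3, 32.5 and 21.4 in early neighbours (log2 fold change -4.57 ± 0.26 SE, adjusted p = 8.4e-12). Mei4, needed for double-strand breaks, differed by -4.05 and the X-linked crossover gene Tex11 by -4.51 on the log2 scale. Ccnb1ip1 (HEI10), which marks maturing crossovers, did not pass against early neighbours, at 45.7, 47.2 and 41.8 against 39.2, 40.9 and 43.5, and was at 1.07, 1.83 and 2.82 in late neighbours (log2 fold change 4.46 ± 0.18 SE, adjusted p = 8e-14). The crossover genes Hfm1 and Msh4 were higher than in late neighbours by 3.69 and 2.57, and Mlh3 rose from early neighbours by 1.44. Of the 3′ end of Spata22, 47.0% was shared with other genes, and of that of Ccnb1ip1 23.0%.

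The piRNA pathway list held the rule genes Piwil1 and Tdrd1, which were not tested. Of the 22 others measured, 7 were higher and 4 lower than in early neighbours, and 11 higher and 1 lower than in late neighbours. The median of the list against early neighbours, 0.34, became -0.24 when scaled by total UMIs. Tdrd6, a scaffold of the chromatoid body, rose from 16.9, 19.8 and 21.8 to 273, 243 and 264 (log2 fold change 3.71 ± 0.10 SE, adjusted p = 8.4e-17), and late neighbours had 299, 288 and 336. Henmt1, which methylates the 3′ end of piRNAs, rose from 1.49, 2.41 and 4.41 to 53.5, 52.96 and 47.5. Tex15, which acts with fetal piRNAs in transposon silencing, fell from 254, 263 and 227 to 14.3, 13.8 and 13.1; without barcodes rich in other types' markers its plain CPM in pachytene spermatocytes was 6.35, 4.29 and 4.99 in place of 12.9, 12.6 and 12.1, with the log2 difference from early neighbours at -4.54 in place of -4.17. Piwil2, the partner PIWI gene, and Mov10l1, the helicase that starts piRNA processing, were higher than in late neighbours by 2.11 and 2.59. Tdrd6 and Henmt1 did not pass against late neighbours.

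Of 16 measured genes of DNA damage signalling and sex chromosome silencing, 7 were lower and 1 higher than in early neighbours, and 10 higher and 0 lower than in late neighbours. Topbp1, which activates the kinase ATR on the unpaired axes, went from 282, 261 and 306 through 138, 126 and 128 to 11.4, 13.97 and 19.95 normalised CPM. Its log2 fold changes were -1.11 ± 0.09 and 3.08 ± 0.11 (SE; adjusted p = 1.4e-09 and 2.3e-14), the first falling short of 2-fold with no filter on low counts. Mdc1, which spreads the silencing mark, and Atr did not pass against early neighbours, at -0.05 and -0.06, and were higher than in late neighbours by 1.66 and 1.05. Brca1 fell from 27.3, 34.3 and 30.7 to 7.21, 4.68 and 6.90. X-linked Scml2 fell from 61.5, 83.00 and 104 to 2.86, 2.74 and 3.65 and was at 2.95, 2.83 and 4.65 in late neighbours, which did not pass. Without barcodes rich in other types' markers its plain CPM was 0.386, 0.555 and 0.962 in place of 2.58, 2.52 and 3.37 and it was lower than in late neighbours (log2 fold change -1.20, edgeR adjusted p = 0.00731), as it was with a margin of 2 between marker sums (-1.17).

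X-linked transcripts were at their lowest in these cells. X-linked genes gave 0.0709%, 0.0879% and 0.105% of the UMIs of pachytene spermatocytes, against 0.948%, 0.902% and 1.03% in early neighbours. The members minus early neighbours differed by -0.872 percentage points on average (SD over 3 libraries 0.055), lower in 3 of 3 libraries. The size of this difference moved with the UMI minimum: it was -0.389 with at least 20000 UMIs per barcode and -1.31 with at least 5000. Single barcodes overlapped: the 95th percentile of pachytene spermatocytes was 0.224%, 0.225% and 1.00%, above the 5th percentile of early neighbours, 0.180%, 0.136% and 0.181%. In late neighbours the share was 0.136%, 0.153% and 0.122%, and in round spermatid neighbours 1.17%, 1.18% and 1.26%. Counting error was small beside these differences: the exact 95% binomial interval of the highest pachytene share, that of the knockout library, was 0.104% to 0.107%.

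Barcodes rich in other cell types' markers moved with these values. Of 16743, 17811 and 30606 X-linked UMIs in pachytene spermatocytes, 11791, 11487 and 14717 lay outside such barcodes. Members of that kind had X-linked shares of 1.67%, 1.41% and 1.62%, and without them the pachytene shares were 0.0506%, 0.0580% and 0.0524%. The knockout library had the highest share with them and lay between the wildtype libraries without them. With the same barcodes taken out of every group, the shares were 0.611%, 0.546% and 0.723% in early and 0.112%, 0.121% and 0.0813% in late neighbours. The median member had 0.0443%, 0.0526% and 0.0459%. In the knockout library 4 members had at least 0.5% X-linked UMIs without meeting the criterion, and in the wildtype libraries 0.

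**Figure D2:**
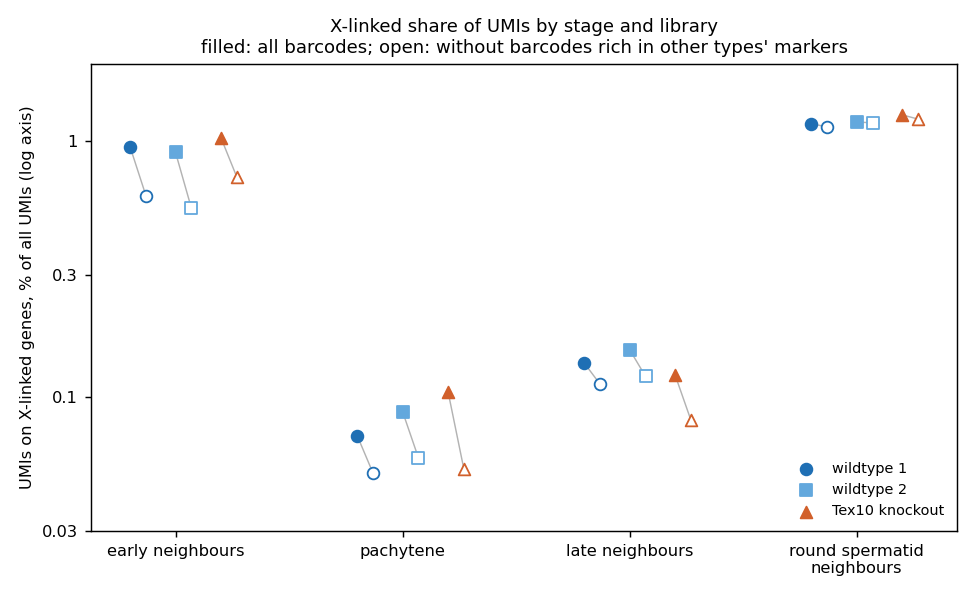
Share of UMIs on X-linked genes (percent, log axis) by stage; each marker is 1 library, filled for all barcodes and open without barcodes rich in other cell types' markers. Pachytene spermatocytes lie lowest in every library, between 0.0709% and 0.105% with all barcodes and between 0.0506% and 0.0580% without, and round spermatid neighbours lie above 1%.

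Gene by gene, 388 of 456 X-linked genes tested were lower in pachytene spermatocytes than in early neighbours and 0 were higher, with a median log2 fold change of -3.04. Without the barcodes rich in other types' markers it was 337 of 389, with 0 higher and a median of -3.70. Against late neighbours 111 were lower and 4 higher, and without those barcodes 144 and 12 of 389. On the Y chromosome 9 of 14 genes were lower than in early neighbours and 0 higher. The largest falls among well-measured genes included X-linked Rhox13, which went from 58.99, 53.5 and 55.5 to 0.983, 1.34 and 1.42, and Suv39h1, a histone methyltransferase gene, from 23.3, 21.7 and 30.1 to 0.421, 0.538 and 0.895. The plain CPM of Rhox13 was 0.89, 1.23 and 1.31 in pachytene spermatocytes and 0.257, 0.151 and 0.356 without barcodes rich in other types' markers. Cmc4 and Pet2, also X-linked, fell by 5.59 and 5.22 on the log2 scale. Autosomal Elavl3, an RNA-binding protein gene, stood among them with 87.7, 84.8 and 128 and 2.43, 1.94 and 2.31.

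Several X-linked housekeeping genes have intronless autosomal copies that are expressed in the male germ line, and the X-linked parents and their copies were compared in the same cells. Of 9 parents measured, 9 were lower than in early neighbours, with a median of -3.20. Of 9 autosomal copies, 6 were higher and 0 lower, with a median of 1.13. Scaling by total UMIs left 2 copies higher and 2 lower, with a median of 0.54, and leaving out barcodes rich in other types' markers left 4 higher and 0 lower. Rpl39, an X-linked ribosomal protein gene, fell from 171, 203 and 154 to 3.56, 6.94 and 8.28, while its copy Rpl39l rose by 1.13 on the log2 scale. Gk, glycerol kinase, was at 0, 0.161 and 0.112 in pachytene spermatocytes, and its copy Gk2 rose from 27.8, 35.5 and 29.7 to 359, 359 and 351 and on to 897, 925 and 845 in late neighbours. Pgk2, the copy of the glycolytic gene Pgk1, rose from 26.3, 26.5 and 34.1 to 66.1, 69.3 and 79.6 (1.26 on the log2 scale, and 0.68 when scaled by total UMIs) and reached 268, 296 and 269.9 in late neighbours. Cetn1, a centrin copy, went from 110.0, 120.3 and 149 to 1903, 1705 and 1766. Pairs such as Rpl10 and its copy share coding sequence, and 49.8% of the 3′ end of Rpl10 was shared with other genes.

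Among transcription regulators of meiosis, 6 of 23 were higher and 9 lower than in early neighbours, where 28% and 23.3% of all genes were. Meiosin (Gm4969) and Stra8, which start meiosis together, were both lower. Meiosin stood at 0.187, 0.161 and 0.149 against 7.44, 7.22 and 10.02 in early neighbours. Stra8 stood at 5.24, 3.39 and 6.93 against 109.6, 150.4 and 117. Its plain CPM in pachytene spermatocytes, 4.74, 3.11 and 6.40, became 0.858, 0.303 and 1.32 without barcodes rich in other types' markers. Stra8 is itself a spermatogonia marker of that criterion, so this drop follows from it and is no finding. The fall of Stra8 was -0.83 with at least 20000 UMIs per barcode and then did not pass. X-linked Taf7l fell from 128, 144 and 144 to 5.06, 5.97 and 6.78, and its plain CPM there, 4.57, 5.48 and 6.27, became 1.16, 1.11 and 2.28 without those barcodes. Pou5f2, Dmrtb1, Rfx4, Tcfl5, Crem and Rfx2 were the 6 that rose, by 4.27, 2.93, 2.17, 1.64, 1.61 and 1.37. Of the last 4, Tcfl5, Crem and Rfx2 are known as regulators of the spermatid programme, and none of the 4 passed against late neighbours.

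Testis histone genes differed from one another. Hist1h1t, the testis linker histone, peaked in pachytene spermatocytes at 230.0, 212 and 318 normalised CPM, against 44.6, 50.5 and 69.7 in early and 45.4, 46.1 and 83.5 in late neighbours. Its log2 fold changes were 2.23 ± 0.09 and 2.13 ± 0.08 (SE; adjusted p = 5.2e-14 and 2e-14), and the knockout library was highest in each stage. H2afy, which encodes the macroH2A found on the sex body, was at 351, 368 and 362 against 72.9, 73.98 and 78.6 and 165, 155 and 167; against late neighbours the rise was 0.93 with DESeq2 and did not pass. The testis form Hist1h2aa went from 173, 219 and 287 in early neighbours through 34.7, 29.4 and 45.6 to 0.134, 1.83 and 2.10 in late neighbours. Hist1h2ba took the same course, from 236, 169 and 375 through 89.6, 70.5 and 132 to 2.14, 2.66 and 6.47. Of the 3′ end of Hist1h2ba 44.1% was shared with other genes. Over the 13 histone genes measured, 3 were higher and 3 lower than in early neighbours, and 6 higher and 0 lower than in late neighbours.

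Of 24 measured genes of the meiotic divisions outside the rule, 10 were lower and 2 higher than in late neighbours, and 6 were lower and 4 higher than in early neighbours. Plk1, the kinase that drives exit from prophase, stood at 13.9, 14.2 and 14.5 against 184, 178 and 161 in late neighbours (log2 fold change -3.62 ± 0.08 SE, adjusted p = 1.4e-16). Ccnb1, cyclin B1, stood at 16.01, 20.2 and 15.7, below both 55.02, 57.1 and 60.1 in early and 285, 260.3 and 199 in late neighbours. Aurkc, the kinase of the meiotic spindle, rose by 3.54 from early neighbours and was lower than in late ones by -1.51 on the log2 scale. The rule kept barcodes rich in Aurka, Cdc25c and Ccna1 out of the pachytene group, and genes expressed together with these 3 are affected by that choice.

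Genes for the sperm tail were mostly higher than in early neighbours. Of 27 measured, 20 were higher and 1 lower than in early neighbours, with a median of 2.68, and 0 were higher and 6 lower than in late neighbours. Scaled by total UMIs, 19 were higher and 6 lower than in early neighbours. Without barcodes rich in other types' markers it was 20 and 3. Spag17, of the central apparatus, rose from 51.6, 47.5 and 57.3 to 655, 635 and 652 (log2 fold change 3.61 ± 0.07 SE, adjusted p = 8e-18) and stayed at 667, 656 and 718. Among axonemal dynein heavy chains, Dnah8 rose from 67.4, 82.4 and 91.2 to 1145, 1105 and 1151. Dnah17 rose from 3.97, 4.81 and 10.8 to 175, 152 and 164. Akap4, Odf1 and Akap3, of the fibrous sheath and outer dense fibres, did not rise: their differences were -0.81, -0.97 and -0.88 and did not pass. The share of protamine and transition protein transcripts was likewise lower than in early neighbours: its median was 0.177%, 0.210% and 0.169% of UMIs in pachytene spermatocytes and 0.447%, 0.421% and 0.519% in early neighbours, and its part in these values was not tested.

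Most acrosome genes were lower than in late neighbours. Of 13 measured outside the rule, 7 were higher and 2 lower than in early neighbours, and 0 higher and 9 lower than in late neighbours (medians 1.4 and -1.32). When scaled by total UMIs, 6 were higher and 6 lower than in early neighbours. Zpbp2, a zona-binding protein of the acrosome, went from 25.3, 37.3 and 37.3 through 331, 318 and 298 to 944, 933 and 832, and Acr, which encodes acrosin, from 10.4, 7.82 and 12.2 through 97.7, 99.1 and 90.5 to 199.9, 217 and 191. For Acr the difference from late neighbours was -0.87 when scaled by total UMIs and short of 2-fold. Spink2, a protease inhibitor of the acrosome, was the most abundant of those named, at 1571, 1533 and 1493 against 53.5, 62.6 and 74.4 in early neighbours (log2 fold change 4.53 ± 0.09 SE, adjusted p = 8e-18). Late neighbours held 3119, 3049 and 2939, which did not pass, although the difference was -1.21 with DESeq2 and -1.005 without barcodes rich in other types' markers and then did.

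Of 23 genes of germ cell energy metabolism, 10 were higher and 5 lower than in early neighbours, and 0 higher and 4 lower than in late neighbours. When scaled by total UMIs, 8 were higher and 11 lower than in early neighbours. Ldha rose with Ldhc, from 58.00, 72.8 and 59.3 to 1123, 1117 and 977, although 22.1% of its 3′ end was shared with other genes. The glucose transporter gene Slc2a3 rose from 48.1, 60.7 and 51.1 to 803, 794 and 719 and Pgam2, a phosphoglycerate mutase gene, from 49.6, 62.6 and 78.6 to 973, 989 and 1022. Somatic cytochrome c, Cycs, differed by -2.34 and its testis form Cyct by 2.07. Among 17 chaperones, 5 were higher and 4 lower than in early neighbours, close to the 28% and 23.3% of all genes, and 4 and 8 when scaled by total UMIs. Cct6b, a testis chaperonin subunit, rose from 27.8, 24.1 and 36.9 to 339, 312 and 329.5, and Hspd1, the mitochondrial chaperonin, fell from 185, 188 and 188 to 18.1, 17.4 and 20.2. Dnajb3 rose from 120.5, 121 and 147 to 707, 684 and 729 and to 1506, 1443 and 1521 in late neighbours, the second step at -0.87 and short of 2-fold when scaled by total UMIs.

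Of 28 genes that bind and control germ cell RNA, 8 were higher and 6 lower than in early neighbours, close to the 28% and 23.3% of all genes, and 8 higher and 1 lower than in late neighbours. The median against early neighbours, 0.12, became -0.47 when scaled by total UMIs and -0.07 without barcodes rich in other types' markers. Dazl, a translation activator of germ cells, went from 1255, 1318 and 1229.6 through 212, 200.3 and 180.3 to 14.6, 22.3 and 23.9 (log2 fold change -2.68 ± 0.08 SE, adjusted p = 9.1e-16 against early neighbours). Ybx3, which binds stored messenger RNAs, rose from 195, 223 and 242 to 2767, 2695 and 2733. Pabpc2, a poly(A)-binding protein gene, rose from 48.1, 48.1 and 61.9 to 728, 723 and 665. Elavl2 fell from 58.00, 57.1 and 38.9 to 1.97, 1.99 and 2.35, or to 0.858, 0.606 and 1.07 plain CPM in place of 1.78, 1.83 and 2.17 without barcodes rich in other types' markers.

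Tex10 encodes a nuclear protein of the complex that processes ribosomal RNA, so its partners and the ribosome biogenesis genes were followed over the stages. Tex10 stood at 66.4, 61.7 and 54.3 normalised CPM in pachytene spermatocytes, 90.2, 87.2 and 88.99 in early and 88.5, 87.5 and 72.4 in late neighbours, and neither difference reached 2-fold (-0.58 and -0.44). Scaled by total UMIs, the difference from early neighbours was -1.16 and passed. Of 11 genes of the complex and its partners, 2 were lower than in early neighbours: Mdn1, at 57.9, 53.2 and 57.00 against 120.5, 94.4 and 135 (at -0.93 and short of 2-fold without the knockout library), and X-linked Las1l, at 0.796, 0.86 and 3.09 against 18.8, 21.7 and 26.3. Prmt1 and Nol9 were higher than in late neighbours, by 2.54 and 1.74. Scaled by total UMIs, 7 of the 11 were lower than in early and 4 higher than in late neighbours. Of 30 ribosome biogenesis genes, 9 were lower and 3 higher than in early neighbours, and 13 higher and 0 lower than in late neighbours. Scaled by total UMIs, 16 were lower than in early neighbours, with a median of -1.12 in place of -0.54. Rrp1b went from 50.1, 65.6 and 58.9 through 23.8, 23.7 and 21.2 to 2.55, 2.33 and 3.55. Wdr75 and Mybbp1a were higher than in late neighbours by 2.60 and 2.76. Of 14 targets of p53 measured, 9 were lower and 1 higher than in early neighbours, among them Gadd45a at 0.281, 0.323 and 0.708 against 6.44, 4.21 and 7.22 and Btg2 at 1.83, 2.20 and 2.16 against 9.91, 13.2 and 14.8. Without barcodes rich in other types' markers 7 of 12 were lower. The plain CPM of Btg2 in pachytene spermatocytes was then 0.129, 0.353 and 0.428 in place of 1.65, 2.02 and 2.00, and that of Gadd45a 0.129, 0.101 and 0.249 in place of 0.254, 0.296 and 0.654.

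**Figure D3:**
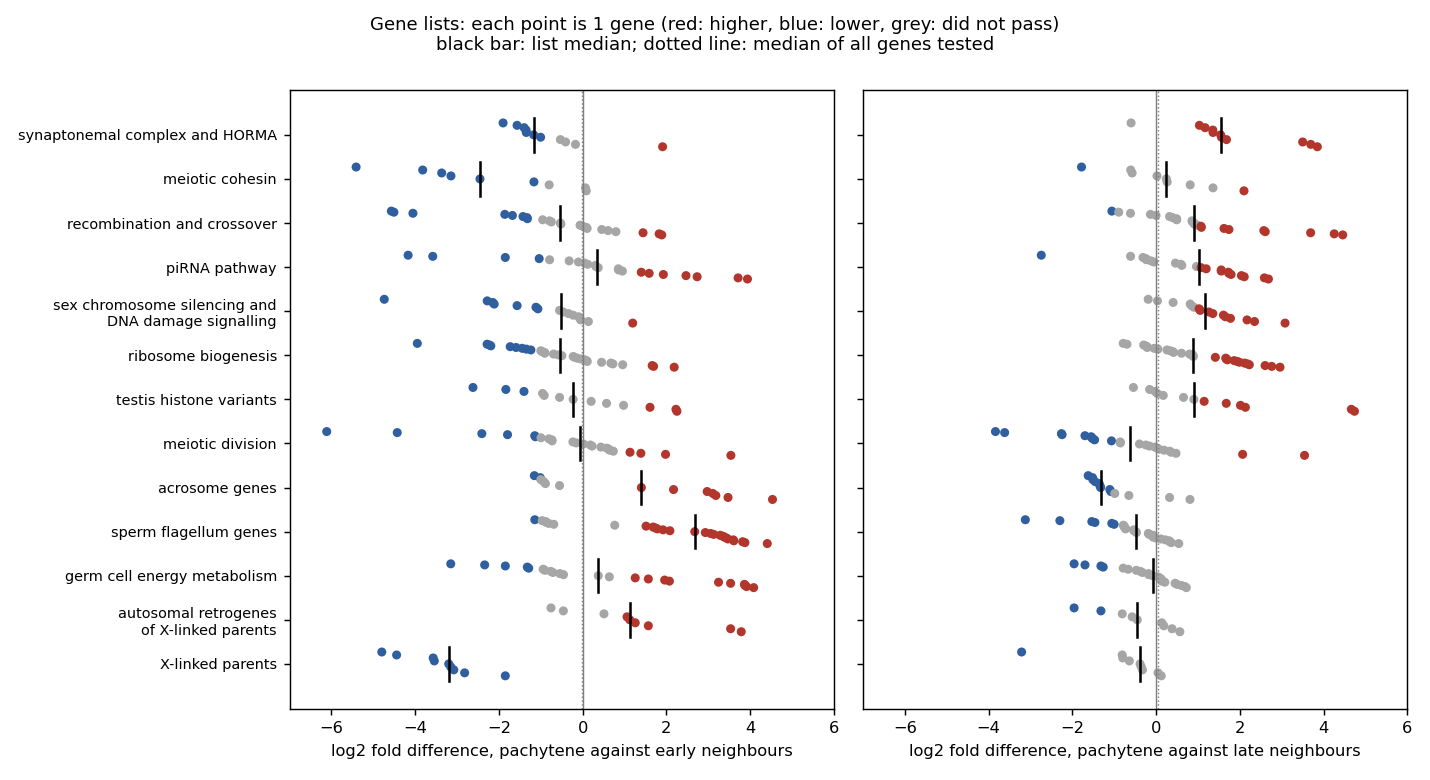
Log2 fold difference of pachytene spermatocytes against early (left) and late neighbours (right) for the genes of 13 lists; each point is 1 gene, red where called higher, blue where called lower and grey where it did not pass, the black bar is the list's median and the dotted line the median of all genes tested. Against early neighbours the median is 2.68 for sperm flagellum genes and -3.20 for X-linked parents, and synaptonemal complex genes change sides, from a median of -1.17 against early to 1.54 against late neighbours.

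Noncoding genes were compared as a class. Of 960 long intergenic noncoding genes tested, 524 (54.6%) were higher than in early neighbours and 87 lower, against 24.2% and 25.6% of 12473 protein-coding genes. Against late neighbours 125 were higher and 343 lower. The difference between the classes was not itself tested. Genes annotated as antisense moved alike, with 347 of 680 higher than in early neighbours, but the use of strand in counting is not stated, so their reads cannot be told apart from those of the opposite gene.

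Against both neighbours at once, 336 genes (2.31% of those tested) were higher in pachytene spermatocytes, 346 (2.38%) were lower, 1115 (7.66%) rose stepwise from early over pachytene to late, and 1022 (7.02%) fell stepwise. Genes with a peak in pachytene included 5 noncoding genes among the 10 with the largest smaller difference. Of all 14564 genes tested 12473 were protein-coding, and the classes of all 336 peak genes were not counted. Gm50166 was at 421, 469 and 370.2 normalised CPM against 2.97, 3.01 and 5.81 and 47.2, 61.5 and 69.6 (log2 fold change 6.51 ± 0.19 SE, adjusted p = 2.5e-16 against early, log2 fold change 2.81 ± 0.10 SE, adjusted p = 2.1e-14 against late neighbours). Gm21269 was at 365, 393 and 319, Gm10619 at 98.2, 100.1 and 86.3, 4933435G04Rik at 162, 171 and 134 and Gm50165 at 91.1, 102 and 87.1. All 5 were lowest in early neighbours, where 4933435G04Rik had 0, 3.61 and 2.20. Among coding genes, Stambp, a deubiquitinase gene, was at 211, 219 and 205 against 13.4, 15.6 and 18.2 and 36.8, 34.1 and 32.98, and Chst1, a carbohydrate sulfotransferase gene, at 98.5, 98.2 and 83.3 against 16.4, 16.2 and 11.4 and 12.3, 14.5 and 19.95. Elfn2 reached 477, 501 and 520.3 and Pnmal1 78.2, 84.04 and 73.8. Aym1 reached 41.9, 44.6 and 37.8 against 2.97, 3.01 and 2.41 and 3.08, 2.00 and 3.74.

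The largest differences from a single neighbour followed the same rule of naming. Gm32857 was at 0 in early neighbours of all libraries and at 43.3, 42.2 and 20.1 in pachytene spermatocytes, though 59.8% of its 3′ end was shared with other genes. The transcript 4930581F22Rik rose from 0.991, 3.61 and 2.20 to 175, 170.3 and 183 and did not pass against late neighbours, at 143, 159 and 206. Genes higher than in late neighbours included Ube2e2, a ubiquitin-conjugating enzyme gene, at 46.6, 48.5 and 46.1 against 0.938, 0.998 and 1.18 in late neighbours, Maz, a zinc finger gene, at 71.03, 78.3 and 66.95 against 1.74, 3.66 and 2.82, and Rnf227 at 98.1, 103 and 109.6 against 2.55, 2.83 and 5.28. Genes lower than in late neighbours included A930018P22Rik, at 3.47, 4.46 and 3.99 against 214, 188 and 146, and Fcmr, at 2.43, 2.90 and 1.27 against 45.8, 42.2 and 26.2.

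Because Mybl1 helped to choose the cells, the promoters of the genes that moved were searched for the words bound by MYB proteins. RefSeq promoter sequences on GRCm38.p6 were searched over the 250 bases before the start for the word TAACGG and its forms TAACTG and CAACGG, and also for CAACTG, on both strands. Only genes with a single promoter entry were used, 22862 in all and 8880 of those tested. At least 1 word was present in 23.7% of all these promoters and in 23.0% of those of genes tested. The share was 31.8% (190 of 597) for genes that rose stepwise, 27.8% (652 of 2349) for genes higher than in early neighbours, 19.4% (412 of 2124) for genes lower than in early neighbours and 17.9% (113 of 633) for genes that fell stepwise. Genes with a peak in pachytene had 23.0% (43 of 187). The word TGACGTCA, bound by the CREM family, was in 1.61% of all promoters, 2.85% of those of genes tested and 1.51% (9 of 597) of those that rose stepwise. These shares were not tested, and a match is not a bound site.

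The windows of 80 bases below show where the words lie in promoters of the rule gene Piwil1, the marker Pou5f2, the peak genes Stambp and Gm10619 and the stepwise rising genes Zpbp2 and Dnajb3. Capitals mark the words, read 5′ to 3′ on the strand of the gene, where CAGTTG and CCGTTA are CAACTG and TAACGG of the opposite strand.
Piwil1, chr5:128736107-128736186 (plus strand): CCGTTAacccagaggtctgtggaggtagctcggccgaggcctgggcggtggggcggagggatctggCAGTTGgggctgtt
Pou5f2, chr13:78024718-78024797 (plus strand): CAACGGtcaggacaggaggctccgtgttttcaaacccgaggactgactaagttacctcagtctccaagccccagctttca
Stambp, chr6:83572620-83572699 (minus strand): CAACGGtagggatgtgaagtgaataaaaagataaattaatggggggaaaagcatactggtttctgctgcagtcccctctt
Gm10619, chr7:73816504-73816583 (minus strand): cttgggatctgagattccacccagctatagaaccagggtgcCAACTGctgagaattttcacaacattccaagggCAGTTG
Zpbp2, chr11:98551017-98551096 (plus strand): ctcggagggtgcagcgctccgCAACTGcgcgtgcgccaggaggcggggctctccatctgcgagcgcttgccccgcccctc
Dnajb3, chr1:88205761-88205840 (minus strand): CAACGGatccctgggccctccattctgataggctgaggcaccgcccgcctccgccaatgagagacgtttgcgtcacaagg
Piwil1 held 2 words in its 250 bases and Gm10619 3, of which the window shows both of the former and part of the latter. Pou5f2, Stambp, Zpbp2 and Dnajb3 held 1 word each. Chst1, Aym1, Gm21269 and Elfn2 among the peak genes and Gk2 and Pgk2 among the rising genes held 0. Mybl1, Tdrd1, Pnmal1 and 4933435G04Rik had no single entry.

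Pachytene spermatocytes were not uniform. Members in which the early sum exceeded the late sum (early-leaning) numbered 101, 97 and 92, those with the late sum above the early sum (late-leaning) 312, 355 and 326, and those with equal sums 24, 53 and 23. Late-leaning members had more UMIs, with medians of 64861, 45537 and 76726 against 27815, 24106 and 35570. Of 10968 genes tested, 34.8% differed, 18.8% higher and 16.1% lower in late-leaning members. Scaled by total UMIs, 1608 were higher and 2581 lower, with a median of -0.36 in place of -0.11.

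Several transcripts were higher in late-leaning members. Pou5f2 went from 4.14, 7.96 and 5.28 in early-leaning to 182, 159.8 and 159 normalised CPM in late-leaning members (log2 fold change 4.87 ± 0.15 SE, adjusted p = 1.5e-11). Zbtb42, a zinc finger gene, Egflam and the noncoding gene 1700026J12Rik rose by 4.82, 4.83 and 4.83, and Gipc2 by 4.59. Spink2 rose from 246, 339 and 316 to 1838, 1753 and 1729 and Ldhc from 2704, 3266 and 3004 to 10796, 9684 and 9526. Of 27 sperm flagellum genes 17 were higher and 0 lower, and of 12 acrosome genes 6 were higher and 0 lower, where 18.8% of all genes were higher. Scaled by total UMIs, 10 of the flagellum genes and 5 of the acrosome genes were higher.

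Other transcripts were lower in late-leaning members. Mdk, a growth factor gene, went from 65.97, 54.9 and 40.5 to 1.77, 1.85 and 1.4 (log2 fold change -4.98 ± 0.15 SE, adjusted p = 1.3e-11). Ccdc152 fell by 3.82, Zfp820 by 3.70, Top2b, topoisomerase IIβ, by 3.67 and the recombination gene Mnd1 by 3.60, with 62.8% of the 3′ end of Mnd1 shared with other genes. Dazl fell from 879, 721 and 674 to 87.6, 95.3 and 83.8 and Sycp1 from 2307, 2309.5 and 2634 to 489, 533 and 528. Of 11 synaptonemal complex genes 9 were lower and 1 higher, of 29 ribosome biogenesis genes 13 were lower and 1 higher, and of 21 piRNA pathway genes 9 were lower and 2 higher. Leaning was set by the early and late sums in the same barcodes. The peak genes Chst1 and Elfn2 did not pass, at -0.12 and -0.08. The X-linked share of UMIs was 0.181%, 0.141% and 0.173% in early-leaning and 0.0482%, 0.0817% and 0.0865% in late-leaning members, so it was lower in late-leaning members of every library. Without barcodes rich in other types' markers it was 0.116%, 0.109% and 0.109%, and 0.0401%, 0.0498% and 0.0432%.

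**Figure D4:**
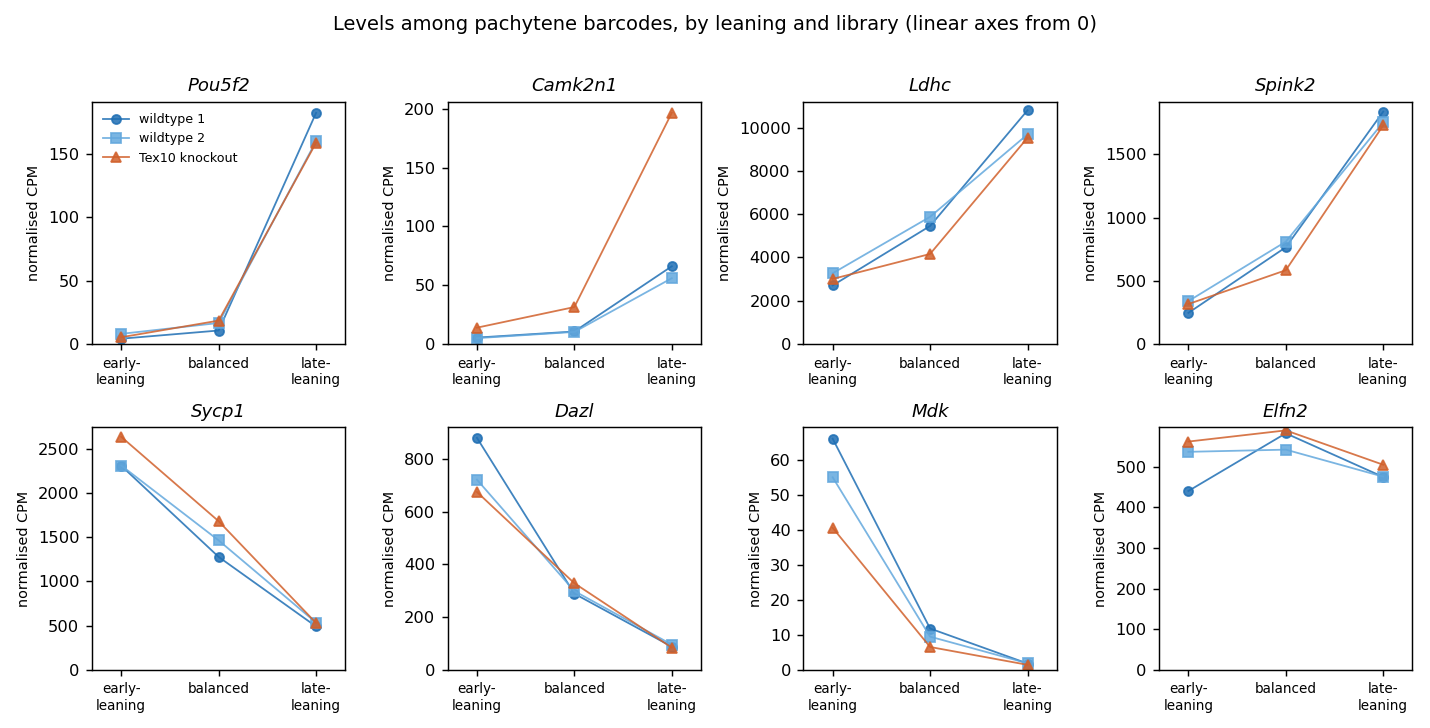
Normalised CPM (linear axes from 0) of 8 genes in early-leaning, balanced and late-leaning pachytene spermatocytes; each line and marker is 1 library. Pou5f2, Camk2n1, Ldhc and Spink2 rise, Sycp1, Dazl and Mdk fall, and the peak gene Elfn2 shows no 2-fold step, while the knockout library lies apart from both wildtype libraries for Camk2n1.

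The knockout library was then set against the wildtype ones. With 1 knockout library no test was possible, and intervals cover counting error only. Pachytene spermatocytes made up 36.8% (exact 95% binomial interval 34.1 to 39.6), 32.9% (30.5 to 35.3) and 33.0% (30.5 to 35.6) of the barcodes in the 4 groups. The knockout share was -1.84 percentage points from the wildtype mean, less than the SD of 2.78 between the wildtype libraries, and lay above wildtype replicate 2. Early-leaning members were 92 of 441 in the knockout library, against 101 of 437 and 97 of 505.

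Tex10 (ENSMUSG00000028345, chromosome 4) stood at 60.1, 56.7 and 50.2 CPM in pachytene spermatocytes. The exact 95% Poisson intervals were 57.02 to 63.3, 53.4 to 60.04 and 47.6 to 52.8. Wildtype libraries averaged 58.4 ± 2.43 CPM (SD, n = 2) and the knockout library reached 85.9% of that, below both wildtype libraries and outside their intervals, and it did not pass the size rule below. The deleted part is not known here, so a 3′ count outside it would not show the loss. Tex10 transcript was likewise lowest in the knockout library in late neighbours and lay between the wildtype values in early neighbours.

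Plain CPM were compared with a rule of size. A gene passed when log2(CPM + 1) of the knockout library differed by at least 1 from each wildtype library in the same direction, the smaller difference was at least 2 times that between the wildtype libraries, and a library reached 20 CPM. Of 5990 genes that could pass, 39 (0.651%) did: 19 (0.317%) were higher and 20 (0.334%) lower in the knockout library. Thinned to 10000 UMIs per barcode, 52 genes passed, 36 higher and 16 lower, and 8 of the 39 no longer did. When either wildtype library took the knockout's role in this rule, 0 genes passed. The median log2 ratio of all genes was 0.01 against wildtype replicate 1 and 0.00 against wildtype replicate 2.

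The gene with the highest wildtype level among those that passed was Rpl29, a ribosomal protein gene on chromosome 9 (106429454 to 106431568, plus strand, GRCm38). It stood at 1167, 1224 and 122 CPM, with Poisson intervals of 1153 to 1181, 1209 to 1239 and 118 to 126. The same difference was present in early neighbours, at 637, 678 and 68.9 normalised CPM, and in late neighbours, at 1289, 1221 and 135. Of its 3′ end 57.7% was shared with other genes. Gm8797 was also lower, at 191, 242 and 24.8 CPM. Of its 3′ end 93.0% was shared, mostly with Gm1821, Ubb and Gm8648. Lower genes also included the noncoding genes Gm28167, at 24.8, 23.6 and 5.30, 4933433G15Rik, at 107, 102 and 35.6, and Gm10076, at 75.7, 63.8 and 21.7 with 84.2% of its 3′ end shared, and the folate gene Mthfsl, at 24.02, 24.2 and 7.44 with 45.9% shared.

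On the higher side, 9530002B09Rik (chromosome 4, 122689275 to 122705129, plus strand) stood at 0.127, 0.247 and 28.5 CPM. Its wildtype UMIs were 3 and 5, against 827 in the knockout library. Camk2n1, which encodes an inhibitor of the kinase CaMKII, stood at 50.03, 43.1 and 153, and rose with stage in all libraries, to 123, 108 and 333 normalised CPM in late neighbours. Sh3bgrl3 stood at 7.41, 8.84 and 28.8, and Ktn1, which encodes the endoplasmic reticulum protein kinectin, at 5.21, 5.63 and 20.8. Amhr2, the receptor of anti-Müllerian hormone in somatic cells of the gonad, stood at 5.55, 7.21 and 24.9, and Ldhb, a lactate dehydrogenase subunit gene, at 5.29, 7.60 and 24.5 with 44.4% of its 3′ end shared.

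Part of the higher set moved with the barcodes rich in other cell types' markers, which were 5.90% of members in the knockout library. Summed Sertoli markers stood at 23.8, 33.8 and 99.7 CPM over all members. Without such barcodes in any library, 13 genes were higher and 22 lower. Clu, a Sertoli marker, was chosen for naming after its values were seen, as were Cst9 and Cst12. It went from 19.4, 27.4 and 81.5 CPM to 8.02, 12.3 and 11.8, but Clu is itself part of the criterion, so its fall is no support. Amhr2, which the criterion did not use, went to 2.53, 3.33 and 3.31. Cst9, Cst12 and Ldhb no longer passed either, and Ktn1, at 19.5 CPM in the knockout library, fell under the minimum with its ratio unchanged at 1.72. Rpl29, 9530002B09Rik, Camk2n1 and Sh3bgrl3 still passed, with smaller log2 ratios of -3.24, 4.65, 1.61 and 1.72.

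Most genes that passed lay on 3 chromosomes. Chromosomes 4, 9 and 14 held 30 of the 39, and 975 of the 5990 genes that could pass. Chromosome 4, which carries Tex10, had 6 higher and 4 lower, chromosome 9 had 3 and 8, and chromosome 14 had 4 and 5. On chromosome 14, the lower genes Gm6526, 4930503E14Rik, Gm32857 and Gm5930 lay between 43747866 and 44338584. Of their 3′ ends 43.5%, 56.6%, 59.8% and 71.2% were shared with other genes, so the split of their reads is uncertain. The higher genes Clu and Ktn1 there no longer passed without barcodes rich in other cell types' markers. Within chromosome 9, Rpl29, Gpr62, Tex264 and the antisense gene 4930500F10Rik, named for their position, lay between 106247960 and 106685927, with Gpr62 and Tex264 higher at 49.5, 37.4 and 128.4 and at 41.5, 44.1 and 106.9 CPM, and 4930500F10Rik lower at 28.3, 22.1 and 8.06. On chromosome 4, 9530002B09Rik ended at 122705129 and Cap1, which started at 122859047, was lower at 81.4, 82.8 and 29.2 CPM. The nearest gene to Tex10 that passed, Gm13306, started at 42153436. Of its 3′ end 79.8% was shared with other genes. With members thinned to 10000 UMIs it no longer passed, at a smaller log2 ratio of -1.35. The strain label is the same in all libraries, and sequence differences between the mice were not examined here.

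**Figure D5:**
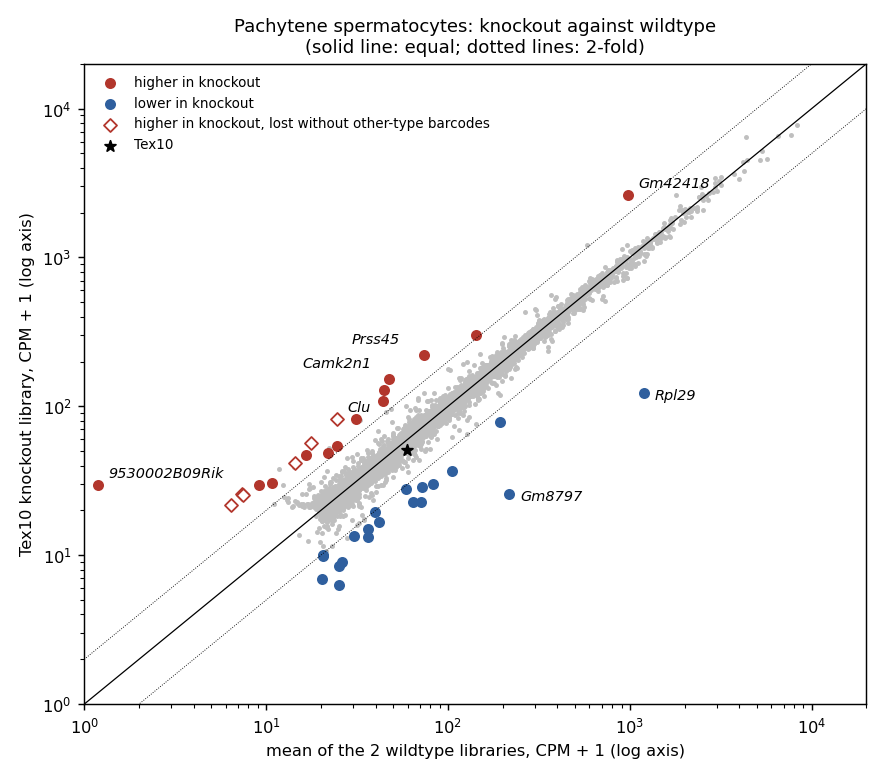
CPM plus 1 (log axes) in pachytene spermatocytes of the knockout library against the mean of the 2 wildtype libraries; each point is 1 gene, red or blue where it passed the size rule as higher or lower, open where it no longer passed without barcodes rich in other cell types' markers, and the star is Tex10. Rpl29 and Gm8797 lie far below the line of equality, and Tex10 lies just under it at 50.2 CPM.

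Of all genes in the 18 pathway lists, Ldhb alone passed the rule, and no member of the synaptonemal complex, recombination, piRNA, acrosome, flagellum or ribosome biogenesis lists did. The lists hold chosen genes only. Mrto4, a ribosome assembly gene outside them, passed as higher in the knockout library, at 145, 139 and 299 CPM. It still passed without barcodes rich in other cell types' markers and no longer did with members thinned to 10000 UMIs (smaller log2 ratio 0.73). The median log2 ratio to wildtype replicate 1 was -0.04 for 10 synaptonemal complex genes, -0.08 for 19 piRNA pathway genes, 0.02 for 24 flagellum genes, 0.06 for 23 ribosome biogenesis genes and 0.01 for 9 Tex10 partners, and to wildtype replicate 2 it was -0.03, -0.06, 0.00, 0.03 and 0.08. Single genes among the 9 Tex10 partners ranged from -0.83 to 0.23 against wildtype replicate 1. Piwil1, a gene of the membership rule, stood at 856, 853 and 699 CPM, the lowest in the knockout library, and Hist1h1t at 208, 195 and 293, the highest there; neither reached 2-fold. Since a difference under 2-fold could not pass, these values do not show that the lists were equal between genotypes.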

How the data were processed

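Single-cell 3′ RNA libraries of whole testis were deposited as 10x matrices of UMI counts per gene and barcode, 1 per library. Per the file headers and the submitters' processing notes, the authors made these counts with Cell Ranger 4.0.0 on mm10; Seurat 4.0.5 is named there with no role. The annotation and the use of strand are not given in the sources used here. Barcodes were chosen by marker sums as stated in the report. The members and gene lists were chosen with earlier results of these data known.

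UMIs were summed per library and stage, filtered with filterByExpr and scaled by the trimmed mean of M values. Stages were compared with edgeR 4.0.16 (R 4.3.3), by its quasi-likelihood test with Benjamini-Hochberg adjustment over all genes tested and the library as a block, since the stages of a library come from the same animals. The script was tested on simulated data with 200 changed genes. Nothing says more of replication than that the libraries came from separate mice, 2 of them pooled in the knockout library. Exact intervals at 95% cover counting error only.

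The rule named the genes of the membership rule, Pou5f2 and Tex10, the 8 most abundant genes, the 10 strongest peak genes, the 5 largest rises and falls per comparison (at 20 CPM or more), the 6 largest knockout differences in each direction and up to 4 called genes per list; other genes named were chosen after their values were seen. GENCODE M21 (GRCm38) gave positions for 32235 of 32285 genes. Of each gene's last 500 transcript bases, the share of 31-base words found in other genes was computed. Promoters came from RefSeq. Alternatives were DESeq2 1.42.0, other UMI minimums (5000 and 20000), a margin of 2 between marker sums, no low-count filter, no block, each library left out and the top 8% of Scrublet scores (scanpy 1.11.5) left out; scaling by total UMIs and leaving out barcodes rich in other cell types' markers were chosen after seeing the data. Python 3.11.15, numpy 2.4.6, scipy 1.17.1 and pandas 2.3.3 were used.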

Additional observations from a re-analysis of the deposited data

How the results depend on the processing

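The stage comparisons called 7473 genes against early neighbours, 5487 against late neighbours and 3822 between leanings, and each count stayed within 1.5 times of these values under every alternative run. With each library left out in turn the counts were 7076 to 7559, 5372 to 5826 and 3572 to 4186. Without the library block, which pairs the stages of 1 library, they were 7301, 5429 and 3784. The X-linked share of members minus early neighbours, -0.872 percentage points, was -1.31 with at least 5000 UMIs, -0.389 with at least 20000, -1.09 with a margin of 2 between marker sums, -0.573 without barcodes rich in other cell types' markers, and -0.900 to -0.846 with a library left out. The knockout size rule passed 39 genes, 82 (42 higher and 40 lower) at 1.5-fold, 167 (118 and 49) with no CPM minimum, 52 (36 and 16) with members thinned to 10000 UMIs, where 8 of the 39 were lost, and 45 to 53 with a wildtype library left out. The knockout share of pachytene spermatocytes, -1.84 percentage points from the wildtype mean, ranged from -3.81 to 0.131. Stra8 against late neighbours was -0.16 (edgeR adjusted p = 0.85) with a margin of 2 in place of 1.59; the cause was not tested. Over the genes followed in the stage comparisons and the alternatives, 2172 results were counted as kept, 49 newly passed, 25 no longer passed and 1 that had passed reversed. Results that had not passed and changed sign were counted as kept. For knockout genes 330 kept and 21 no longer passed. The single knockout library and the shallow early neighbours limit these comparisons, and low genes were tested at the depth of the smallest summed group.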
